A study of Mus musculus with 8 samples.

Results

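Cholesterol synthesis in gonadal white fat was followed through 8 genes: Srebf2, Insig1 and the enzyme genes Hmgcs1, Idi1, Fdps, Sqle, Cyp51 and Hsd17b7. The members were fixed by name, and every probe set of the array whose annotated symbol was exactly one of these names was used, 20 probe sets of 45037 in all. The brightest probe set by its mean on the 8 arrays stood for each gene, which makes 8 of 18193 genes. The samples were 4 arrays from control mice, labelled wild type, and 4 from mice labelled aP2-Pex5 -/-, 1 array per sample, all of gonadal adipose tissue at 10 weeks of age. The control mice are given as Swiss in background, and all mice as kept under normal conditions without treatment. Pex5 encodes the receptor that brings enzymes into the peroxisome. The name aP2 stands for the fat gene Fabp4, whose promoter is active in fat cells but can also be active in other cells such as macrophages. The submitters describe the knockouts as having no working peroxisomes in adipose tissue. The labels do not give the sex of the mice, which exons of Pex5 were deleted, or whether each array holds a different mouse. Arrays are named here by group and by the number in their label, controls 1, 2, 3 and 4 and knockouts 6, 8, 9 and 10.

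Cells make cholesterol from acetyl-CoA through mevalonate and the isoprenoid diphosphates to squalene, lanosterol and finally cholesterol. The transcription factor SREBP2, made from Srebf2, raises the genes of this route when sterol in the endoplasmic reticulum is low, and the INSIG proteins hold its escort SCAP back when sterol is plentiful. Insig1 is itself a target of SREBP, so its transcript is often read together with those of the enzymes. White adipose tissue stores much of the body's free cholesterol in its lipid droplets and makes rather little of it. Some enzymes of the mevalonate part of the route have been assigned to peroxisomes.

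The promoters of Hmgcs1, Idi1, Insig1 and Srebf2 are shown as background. Whether promoter sequence has a part in the levels of these genes over the arrays was not tested. RefSeq's promoter table (GRCm38.p6) listed 6 of the 8 genes, all but Fdps and Sqle, and its windows run from 250 bases before to 50 after the start of the gene. Each sequence below is the 250 bases before the start, on the gene's strand, 5′ to 3′. Capitals mark matches on either strand to CCAAT, the box bound by NF-Y (ATTGG when read on the other strand), or to TCACNCCAC, a form of the sterol regulatory element to which SREBP binds.
Hmgcs1, chr13:119690101-119690350, plus strand: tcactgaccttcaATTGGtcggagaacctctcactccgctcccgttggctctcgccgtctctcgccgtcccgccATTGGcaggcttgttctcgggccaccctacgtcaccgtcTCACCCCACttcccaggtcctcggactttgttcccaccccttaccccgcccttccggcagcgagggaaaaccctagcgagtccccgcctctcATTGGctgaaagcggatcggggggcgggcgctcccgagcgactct
Idi1, chr13:8885356-8885605, plus strand: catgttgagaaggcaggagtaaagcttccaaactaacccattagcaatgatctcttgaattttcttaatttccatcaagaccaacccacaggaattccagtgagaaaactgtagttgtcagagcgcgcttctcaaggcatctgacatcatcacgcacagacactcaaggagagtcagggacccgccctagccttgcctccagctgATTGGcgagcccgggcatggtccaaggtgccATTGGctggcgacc
Insig1, chr5:28071162-28071411, plus strand: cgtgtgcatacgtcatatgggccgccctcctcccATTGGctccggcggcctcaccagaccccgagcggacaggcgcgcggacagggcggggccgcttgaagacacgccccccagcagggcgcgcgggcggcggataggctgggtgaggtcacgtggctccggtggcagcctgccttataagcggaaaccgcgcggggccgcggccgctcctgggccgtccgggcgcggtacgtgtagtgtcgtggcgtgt
Srebf2, chr15:82147019-82147268, plus strand: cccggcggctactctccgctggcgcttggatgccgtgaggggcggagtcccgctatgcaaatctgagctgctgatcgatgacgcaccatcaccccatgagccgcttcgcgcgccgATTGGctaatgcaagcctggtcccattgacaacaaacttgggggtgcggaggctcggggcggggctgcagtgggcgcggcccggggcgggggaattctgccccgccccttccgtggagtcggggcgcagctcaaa

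A CCAAT box was found in the whole window of 300 bases in 6 of the 6 listed promoters, against 37.4% of all 32851 promoters in the table. Hmgcs1 held 4 such boxes, Hsd17b7 held 3, Idi1 held 2, and Cyp51, Insig1 and Srebf2 held 1 each. At least 2 boxes were present in 3 of the 6, against 11.7% of all promoters. The sterol element as spelled here was matched in Hmgcs1 alone, against 1.24% of all promoters. There it lies on the plus strand and begins at position -137 from the start. Other forms of the element were not searched, so the remaining promoters, that of Srebf2 included, may hold one. No matches of these motifs overlapped each other. Among 15 promoters listed for 12 further enzymes of sterol synthesis, 12 held a CCAAT box and 0 held the sterol element as spelled here. A match is a feature of the sequence and no binding was measured.

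None of the 8 genes differed between knockout and control beyond the spread between arrays. The deposited values are log2 intensities made with RMA, and the test was limma fitted over all 18193 genes. With Benjamini-Hochberg adjustment, 0 of the 8 genes passed a threshold of 0.05, and over all genes the share that passed was 0% (0 genes). At an unadjusted p under 0.05 there were again 0 of 8, against 2.56% of all genes (466). The knockout mean was the higher in 4 of the 8 genes and the lower in 4, against 53.3% of all genes lower. The groups overlapped in each of the 8 genes, while they did not overlap in 1.70% of all genes. The median difference of the 8 genes was -0.06 on the log2 scale, beside -0.01 over all genes. Without controls 1 and 4 and knockout 9, the arrays on which the pyruvate carboxylase control read highest at its 3' end relative to its 5' end, 155 genes passed (0.852%), and 0 of the 8 were among them. That selection was made after seeing the data.

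The arrays themselves set limits on this comparison. Median log2 values ran from 6.45 to 6.52 per array, and correlations between arrays from 0.976 to 0.994. By their lower quartiles the arrays fall into 2 sets of 4. The set of control 1 also holds control 2, knockout 6 and knockout 8, and the other set holds control 3, control 4, knockout 9 and knockout 10. Nothing in the labels names these sets, but they are the first 4 and the last 4 samples in the order in which the series lists them. Adipocyte markers were high on every array, with a mean of 8 markers of 13.10 to 13.42 in control and 13.26 to 13.44 in knockout, and 0 of the 8 were below the lower quartile of any array. Pex5 itself (1426770_at) had a mean of 9.38 ± 0.24 over the controls and 9.36 ± 0.10 over the knockouts (here and throughout, SD and n = 4 per group). No source used here places the Pex5 probes relative to the deletion, so this value checks nothing about the genotype labels.

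**Figure D1:**
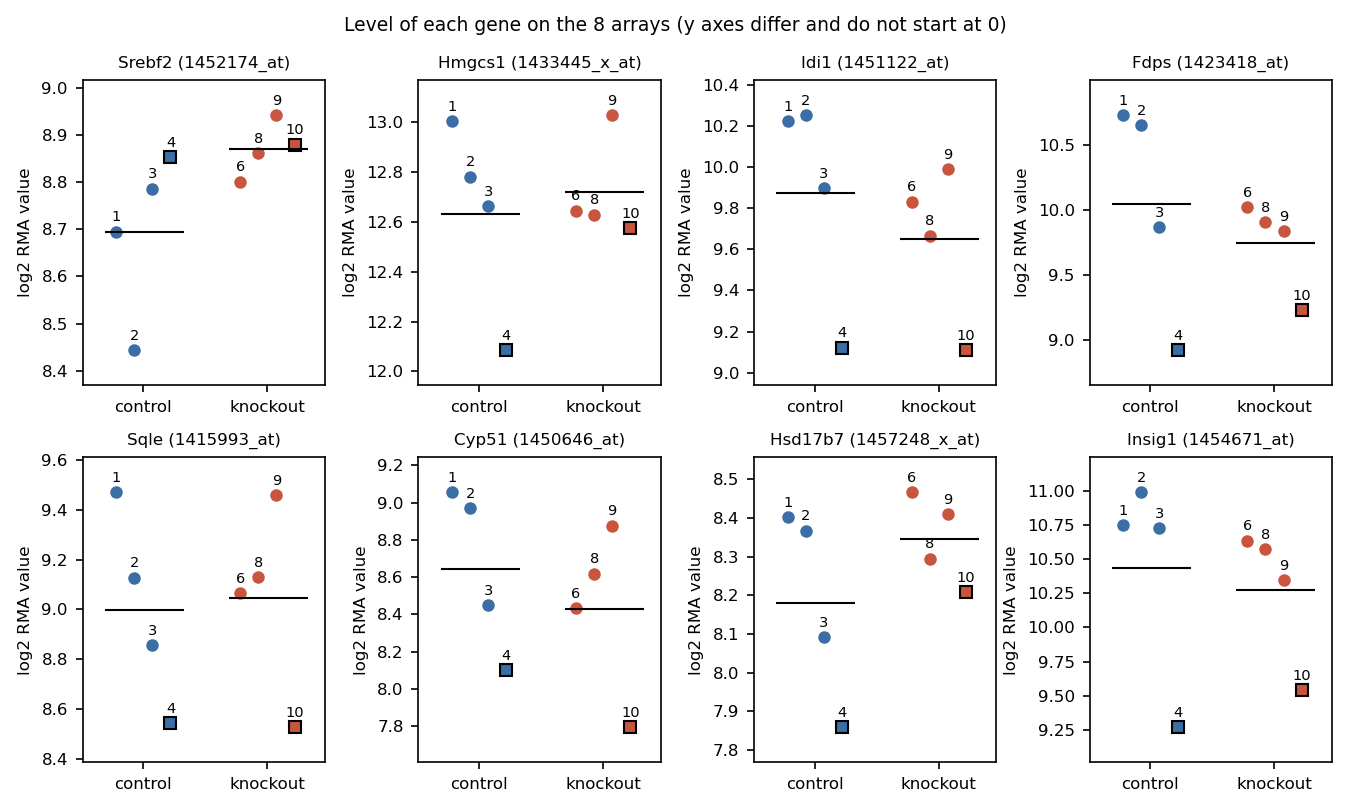
Each panel plots 1 gene: the y axis is the deposited log2 RMA value of its representing probe set, the x axis the genotype, each point 1 array with its label number, and each line the group mean (n = 4). Control 4 and knockout 10, drawn as squares, are the lowest arrays in Hmgcs1, Idi1, Fdps, Sqle, Cyp51 and Insig1, and for Srebf2 they are not among the lowest.

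Srebf2, the gene of the transcription factor, varied least of the 8 genes. In control it read 8.69, 8.44, 8.79 and 8.85 on arrays 1, 2, 3 and 4, and in knockout 8.80, 8.86, 8.94 and 8.88 on arrays 6, 8, 9 and 10. Knockouts 8, 9 and 10 lay above every control, and knockout 6 lay below control 4. The means were 8.69 ± 0.18 and 8.87 ± 0.06, so that the knockout was higher by 0.18 (95% interval -0.04 to 0.40, limma adjusted p = 0.999, unadjusted p = 0.104). The other probe set of Srebf2, 1426744_at, had means of 8.31 ± 0.12 and 8.43 ± 0.18 and differed by 0.11 (interval -0.13 to 0.36). Over the 8 arrays the pair of probe sets correlated at an r of 0.16, so they did not share a pattern between arrays. Without control 4 the difference was 0.23 (limma, unadjusted p = 0.0469, adjusted p = 0.573). With array weights it was 0.22 (limma, unadjusted p = 0.0403, adjusted p = 0.773), and with the pyruvate carboxylase measure as a covariate 0.21 (limma, unadjusted p = 0.0489, adjusted p = 0.978). In these settings 1566, 1039 and 674 of 18193 genes, in that order, had an unadjusted p under 0.05. Without control 2 the Srebf2 difference was 0.09 (limma, unadjusted p = 0.256), and in the set of control 4 it was 0.09 (limma, unadjusted p = 0.426).

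Insig1, which retains SCAP and with it SREBP in the endoplasmic reticulum, was measured by 1 probe set, 1454671_at. The controls read 10.75, 10.99, 10.73 and 9.27, and the knockouts 10.63, 10.57, 10.34 and 9.54. Control 4 and knockout 10 stood below the other 6 arrays, which lay between 10.34 and 10.99. The means were 10.43 ± 0.78 and 10.27 ± 0.50, and the difference was -0.16 (interval -1.07 to 0.75, limma adjusted p = 0.999). From the lowest to the highest array Insig1 varied 3.29-fold.

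Hmgcs1, which makes HMG-CoA from acetoacetyl-CoA and acetyl-CoA, had 5 probe sets. The representing one, 1433445_x_at, read 13.00, 12.78, 12.66 and 12.09 in control and 12.64, 12.63, 13.03 and 12.58 in knockout. Control 4 was lowest, and control 1 and knockout 9 were the highest. The difference was 0.09 (interval -0.36 to 0.53, limma adjusted p = 0.999), and the other 4 probe sets of the gene gave 0.04, 0.15, 0.10 and 0.07. Those 4 followed the representing one over the arrays at an r of 0.84 to 0.997. The suffix _x_at marks probe sets that may also bind other transcripts, and the agreement with 1433446_at, which has no such suffix, was the closest (r = 0.997).

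Idi1 and Fdps act in succession, the former isomerising isopentenyl diphosphate and the latter joining the isoprenoid units to farnesyl diphosphate. Idi1 (1451122_at) read 10.22, 10.25, 9.90 and 9.12 in control and 9.83, 9.67, 9.99 and 9.11 in knockout. Fdps (1423418_at) read 10.73, 10.65, 9.87 and 8.92 in control and 10.02, 9.90, 9.84 and 9.23 in knockout. In both genes controls 1 and 2 were the highest arrays, control 4 and knockout 10 the lowest, and the groups overlapped. Idi1 differed by -0.22 (interval -0.87 to 0.42) and its other probe set, 1423804_a_at, by -0.22. Fdps differed by -0.30 (interval -1.19 to 0.60), and both genes had a limma adjusted p of 0.999. Fdps had the widest range of the 8 genes, 3.50-fold between its lowest and highest arrays. Its other probe set, 1438150_at, read 3.07 to 3.20, below the lower quartile of every array (4.77 to 4.85), and carries little information. Without control 4 the Fdps difference was -0.67 (unadjusted p = 0.0367, limma adjusted p = 0.566). In that setting 1566 of 18193 genes had an unadjusted p under 0.05. Without control 1 the Fdps difference was -0.07 (limma, unadjusted p = 0.867).

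Sqle makes the epoxide of squalene, a rate-limiting step of the sterol part of the route. Its 1 probe set, 1415993_at, read 9.47, 9.13, 8.86 and 8.54 in control and 9.06, 9.13, 9.46 and 8.53 in knockout. Each group held 1 high array, control 1 and knockout 9, and 1 low array, control 4 and knockout 10. The difference was 0.05 (interval -0.50 to 0.60, limma adjusted p = 0.999).

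Cyp51 removes a methyl group of lanosterol, and Hsd17b7 reduces a keto group in the later demethylation. Cyp51 (1450646_at) read 9.05, 8.97, 8.45 and 8.10 in control and 8.43, 8.62, 8.88 and 7.79 in knockout. Hsd17b7 (1457248_x_at) read 8.40, 8.37, 8.09 and 7.86 in control and 8.47, 8.29, 8.41 and 8.21 in knockout. Knockout 10 was the lowest array for Cyp51, while for Hsd17b7 it lay above controls 3 and 4. Cyp51 differed by -0.21 (interval -0.85 to 0.42) and its probe set 1422533_at by -0.24. Hsd17b7 differed by 0.16 (interval -0.13 to 0.46), and its probe sets 1417871_at and 1448865_at by 0.16 and 0.05. Over the arrays 1417871_at and 1448865_at correlated with the representing _x_at probe set at 0.90 and 0.61. Both genes had a limma adjusted p of 0.999. The remaining probe sets, 1422534_at of Cyp51 (5.25 to 5.48) and 1440057_at of Hsd17b7 (4.12 to 4.38), were dim and correlated with the representing ones at 0.37 and 0.35.

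**Figure D2:**
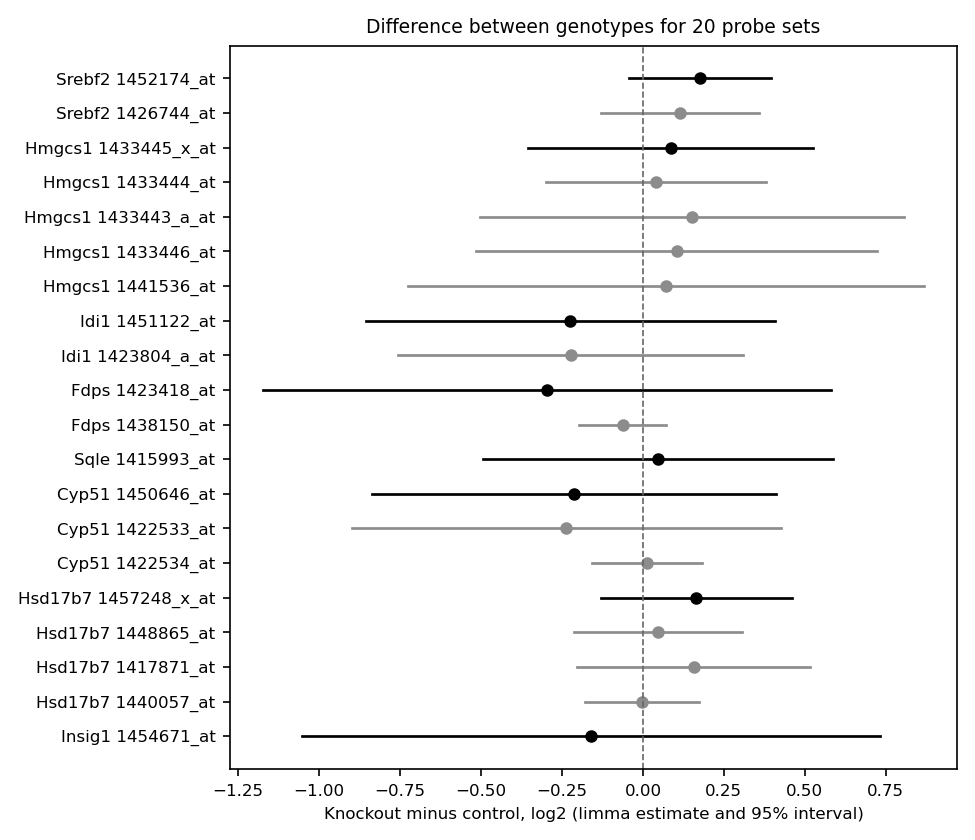
The x axis gives knockout minus control on the log2 scale for each of the 20 probe sets, with the limma estimate as a point and the 95% interval as a line, from a fit over 45037 probe sets with 4 arrays per group. Black marks the probe set that represents its gene, grey the others. Every interval includes 0.

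The genotype difference was also estimated with the array set as a block and within each set. With the block 0 of the 8 genes had a limma p under 0.05, adjusted or not, the smallest being Srebf2 (0.18, interval -0.01 to 0.36, unadjusted p = 0.0563, adjusted p = 0.932), and 0 of all genes passed (703 unadjusted). In the set of control 1, 7 of the 8 genes were lower in knockout, against 55.0% of all genes, and Fdps (-0.73), Idi1 (-0.49) and Cyp51 (-0.49) had unadjusted p-values of 0.00121, 0.00704 and 0.00928. Their limma adjusted p was 0.703 for each, and 7.02% of all genes had an unadjusted p under 0.05 in that set. In the set of control 4, 1 of the 8 genes was lower (Insig1, -0.06), against 46.6% of all genes, and Fdps, Idi1 and Cyp51 differed by 0.14 (interval -0.96 to 1.24), 0.04 (-1.11 to 1.19) and 0.06 (-1.05 to 1.17), intervals that hold the estimates of the set of control 1. Each set holds 2 arrays per group, and the contrast between the sets was not tested.

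Most of the variation in these genes lay between arrays within a genotype. The genotype accounted for a median of 6.66% of the sum of squares of the 8 genes, beside a median of 6.96% over all genes. The array set accounted for 32.3%, beside 21.7% over all genes, with Fdps at 55.5% and Hmgcs1 at 10.3%. Control 4 and knockout 10 were the 2 lowest arrays in 6 of the 8 genes, as they were in 15.6% of the 9096 genes above the median level. The mean of the 8 genes on an array after centring each gene, called the shared score here, was -0.57 for control 4 and -0.43 for knockout 10. The score was 0.38, 0.29 and 0.01 for controls 1, 2 and 3, and 0.08, 0.05 and 0.20 for knockouts 6, 8 and 9. The SD of Fdps and Insig1 over the 8 arrays was wider than that of 96.9% and 96.8% of genes above the median level, and that of Srebf2 was wider than 51.9% of them.

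Insig1 and the 6 enzyme genes rose and fell together over the arrays. The 21 pairs among these 7 genes had Pearson correlations between 0.61 and 0.94 (median 0.80), and 9 of them were at least 0.8. All pairs of genes above the median level had a median r of 0.02, and 3.95% of them reached 0.8. The 28 pairs of all 8 genes had a median of 0.75. By exact permutation tests, taken in both directions, over these 28 pairs with Benjamini-Hochberg adjustment, 14 passed 0.05 by Pearson's r and 3 by Spearman's rho, and none of these included Srebf2. In such bulk samples fewer cells of a type and less RNA per cell cannot be told apart.

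**Figure D3:**
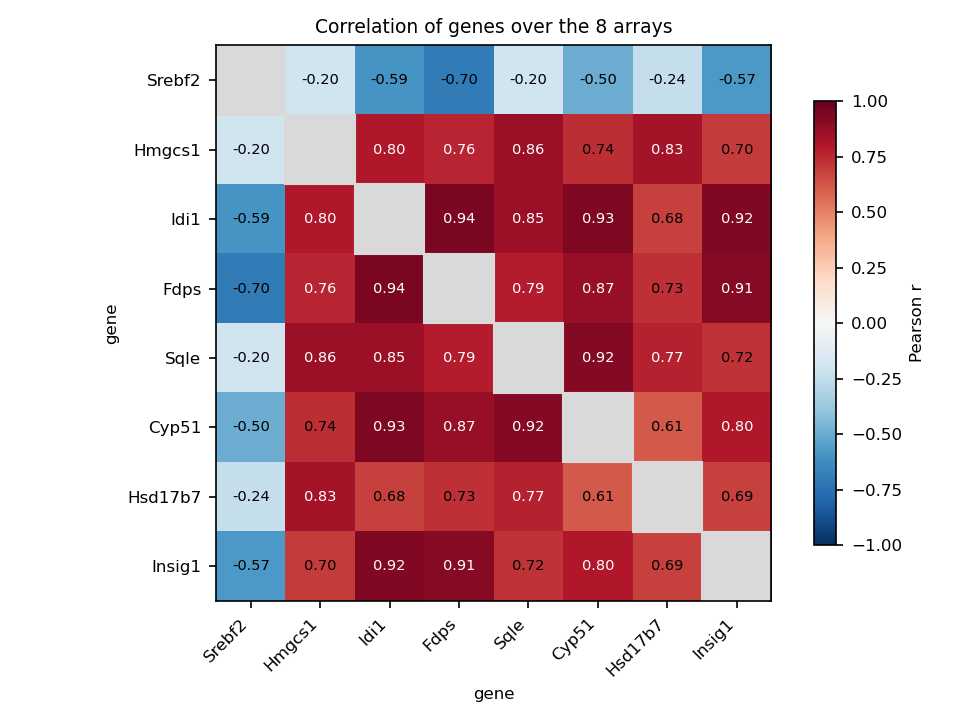
Each cell gives Pearson's r between the gene of its row and the gene of its column over the 8 arrays, on a colour scale from -1 (blue) to 1 (red). The 7 genes other than Srebf2 correlate at 0.61 to 0.94, and Srebf2 correlates with them at -0.70 to -0.20.

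Among the 8 genes, Idi1 had the highest correlation with the shared score, 0.97, of which it is a part. Its r with Fdps was 0.94 (exact permutation p = 0.00288, adjusted 0.0171), with a Spearman rho of 0.74 (exact p = 0.0458, adjusted 0.117), and 0.84 without control 4 and knockout 10, the arrays farthest from the median of Idi1. Within the array sets that r was 0.99 and 0.96, over 4 arrays each, too few for a test. Idi1 and Cyp51 had an r of 0.93 (exact p = 0.00107, adjusted 0.0149) and a rho of 0.90 (exact p = 0.00456, adjusted 0.0426), and 0.81 without the same arrays. Sqle and Cyp51, which act close together in the sterol part, had an r of 0.92 (exact p = 0.00203, adjusted 0.0171) and a rho of 0.90 (exact p = 0.00456, adjusted 0.0426), and 0.78 without these arrays. Fdps and Insig1, the other pair that passed by both measures, had an r of 0.91 (exact p = 0.000744, adjusted 0.0149), a rho of 0.90 (exact p = 0.00456, adjusted 0.0426), and an r of 0.91 without controls 1 and 4.

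Other pairs rested on the lowest arrays. Sqle and Insig1 had an r of 0.72 (exact permutation p = 0.0465, adjusted 0.0726; rho 0.50, exact p = 0.216, adjusted 0.275) that turned to -0.37 without control 4 and knockout 10. Over all 21 pairs the median fell to 0.44 without those arrays, which were chosen after seeing the data, with 18 of 21 still above 0. With the mean of each array set subtracted, the median of the 21 pairs was 0.79 (0.40 to 0.95), and with the genotype means subtracted it was 0.86 (0.74 to 0.97). Within the set of control 1 the 21 pairs ran from -0.19 to 0.99 (median 0.70), and within the other set from 0.49 to 0.97 (median 0.77).

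The Srebf2 probe set that stands for the gene had negative correlations with the other 7 genes over the 8 arrays, and their sign differed between the array sets. The 7 correlations ran from -0.70 with Fdps to -0.20 with Sqle, and 7 of 7 were below 0. The strongest, with Fdps, had an exact permutation p of 0.0467 (adjusted 0.0726) and a rho of -0.71 (exact p = 0.0576, adjusted 0.124), and was -0.21 without controls 1 and 2. With Insig1 the r was -0.57 (exact p = 0.130, adjusted 0.152) and the rho -0.83 (exact p = 0.0154, adjusted 0.0615), and the r was -0.34 without controls 1 and 2. Within the set of control 1, 0 of the 7 were above 0 (median -0.69), and within the set of control 4, 6 of the 7 were (median 0.31), over 4 arrays each, too few for a test. Without control 4 and knockout 10, which were left out after seeing the data, the 7 ran from -0.95 with Insig1 to 0.15 with Sqle. With array set means subtracted 2 of the 7 were above 0, and without controls 1 and 2 they were 4 of 7. The other Srebf2 probe set, 1426744_at, had an r of 0.35 with the mean of the 7 other genes, where the representing one had -0.53, so the sign differed between the probe sets.

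Other enzymes of sterol synthesis did not differ between genotypes beyond the spread between arrays either. Of 16 listed, 13 were measured under a usable name, and the others were not analysed here. In knockout 11 of the 13 were lower (median -0.06), against 53.3% of all genes. An adjusted p under 0.05 was reached by 0 of the 13, and an unadjusted one by 0, against 2.56% of all genes. The smallest unadjusted p-values belonged to Tm7sf2, a sterol reductase, with means of 8.04 ± 0.71 and 7.72 ± 0.32 (difference -0.31, interval -1.08 to 0.46), to phosphomevalonate kinase Pmvk (-0.28, interval -1.05 to 0.48) and to squalene synthase Fdft1 (0.14, interval -0.24 to 0.52), each with a limma adjusted p of 0.999. Without control 2 the count lower was 7 of 13, and within the set of control 4 it was 5. Control 4 and knockout 10 were the 2 lowest arrays in 8 of the 13.

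**Figure D4:**
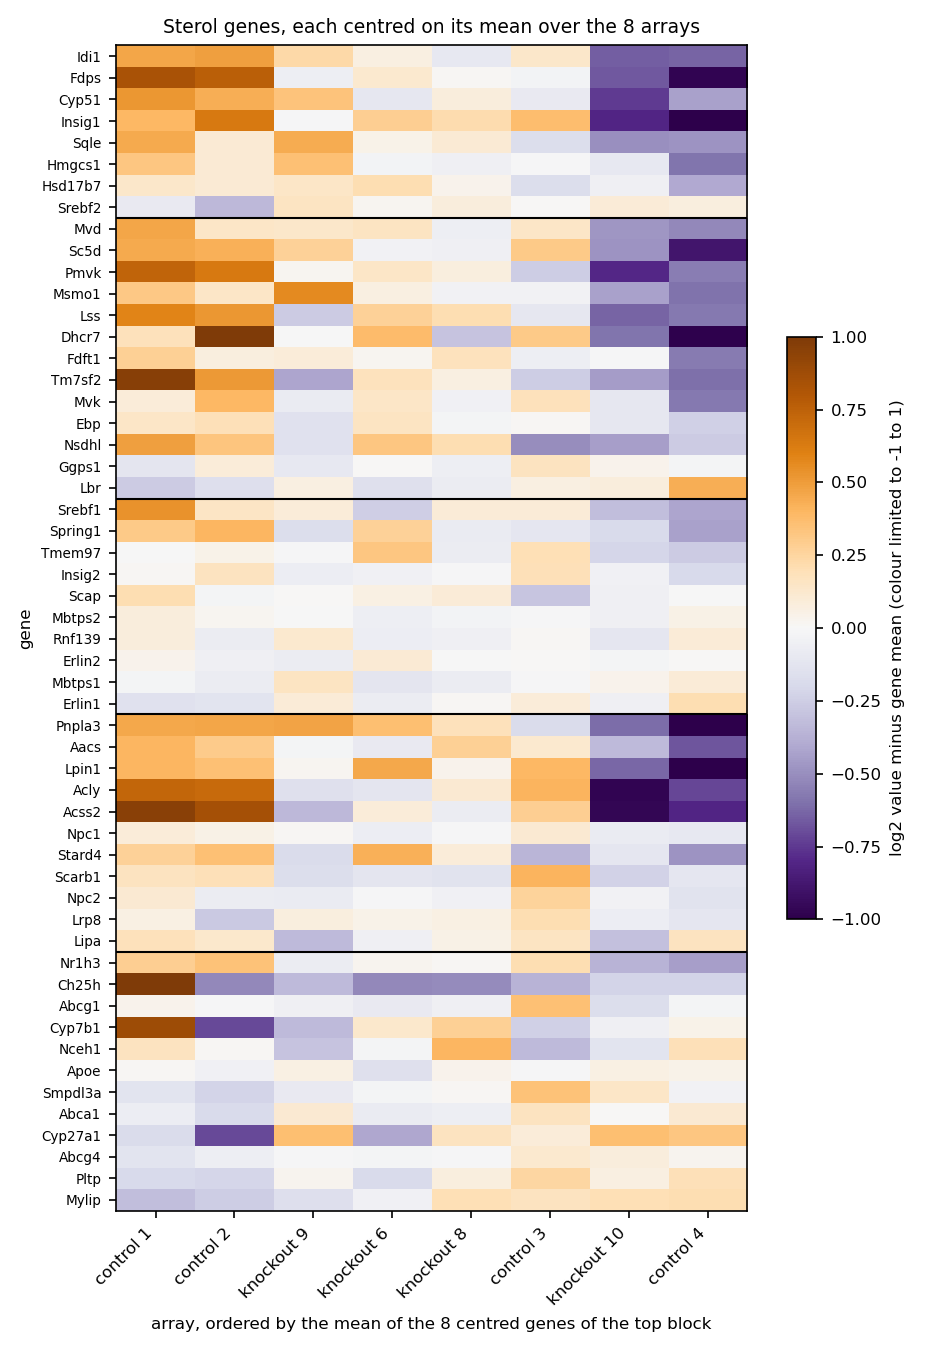
Colour gives the log2 value of each gene (rows) on each array (columns) after subtracting the gene's mean over the 8 arrays, limited to -1 to 1. Columns run from the highest to the lowest shared score, and blocks from top to bottom hold the 8 genes, the other sterol enzymes, SREBP processing, sterol uptake and other targets, and sterol export. Knockout 10 and control 4, at the right, are the 2 lowest arrays in 6 of the 8 genes, 8 of the 13 other enzymes and 6 of the 11 uptake genes and other targets.

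Likeness to the shared score was measured as Pearson's r over the 8 arrays and is given as a description. Of the 13 other enzymes 7 had an r of at least 0.8 (median 0.81), beside 5.65% of all genes and 10.4% of the 9088 non-member genes above the median level. Mvd, the mevalonate diphosphate decarboxylase, stood at 0.95, the sterol desaturase Sc5d at 0.95, Pmvk at 0.91 and the methylsterol oxidase Msmo1 at 0.91. Lbr, whose protein is both a sterol reductase and a receptor of the nuclear lamina, went the other way at -0.85: it read 10.23 in control 4 against 9.53 in control 1. Ggps1, which makes geranylgeranyl diphosphate for protein prenylation, stood at -0.21.

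In the list of SREBP processing and its control, 10 of 12 genes were measured. An r of at least 0.8 was reached by 1 of the 10, a share near the 10.4% of genes above the median level. That gene was Srebf1 (0.86), which encodes SREBP1 itself and not a processing protein. The median r of the list was 0.26, beside -0.04 over all genes, and control 4 and knockout 10 were the 2 lowest arrays in 3 of the 10, beside 15.6% of genes above the median level. Between genotypes 4 were higher and 6 lower in knockout, against 53.3% of all genes lower. An unadjusted p under 0.05 was reached by 0 of the 10, against 2.56% of all genes. The site 2 protease gene Mbtps2 differed by -0.07 (interval -0.20 to 0.06), Srebf1 by -0.18 (-0.64 to 0.27) and Insig2 by -0.08 (-0.30 to 0.13). The escort Scap stood at an r of 0.32 and the site 1 protease gene Mbtps1 at -0.36.

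The list of sterol uptake and other SREBP targets had 11 measured of 13, of which 5 had an r of at least 0.8 with the shared score (median 0.73), beside 10.4% of genes above the median level. They were the lipid droplet gene Pnpla3 (0.96), the ketone-using synthetase Aacs (0.91), the phosphatidate phosphatase Lpin1 (0.90), ATP citrate lyase Acly (0.87) and acetyl-CoA synthetase Acss2 (0.87), of which several are also known as SREBP1 targets. Acss2 differed by -0.64 between genotypes (10.29 ± 0.81 against 9.64 ± 0.46, interval -1.55 to 0.27, limma adjusted p = 0.999).

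Lipa and Scarb1 were the 2 genes of the wider lists with an unadjusted p under 0.05. Lipa, the lysosomal acid lipase that frees cholesterol from its esters, read 10.17, 10.12, 10.15 and 10.16 in control and 9.94, 10.05, 9.66 and 9.68 in knockout. Scarb1, a receptor for high-density lipoprotein, read 10.54, 10.57, 10.78 and 10.26 in control and 10.25, 10.23, 10.20 and 10.14 in knockout. Every knockout lay below every control in both genes, as in 1.70% of all genes for either direction. For Scarb1 the groups nearly touched, with control 4 at 10.255 and knockout 6 at 10.254. The differences were -0.32 (interval -0.54 to -0.09, unadjusted p = 0.0111) and -0.33 (-0.57 to -0.08, unadjusted p = 0.0156), and both had a limma adjusted p of 0.999. In this list 2 of 11 genes thus had an unadjusted p under 0.05, both lower, against 2.56% of all genes in either direction and 1.38% lower. Macrophages are rich in Lipa, and the mean of 9 macrophage markers ran from 9.50 to 10.13 in control and from 9.17 to 9.73 in knockout. The summed linear level of these markers ran from 12546 to 21166 in control and from 10767 to 16185 in knockout, and 0 of the 9 were below the lower quartile of any array. Their part in the Lipa difference was not tested.

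Genes of sterol export and of the LXR receptors, which respond to high sterol, had a negative median r. Of 12 measured of 15, 1 had an r of at least 0.8, Nr1h3 (0.90), beside 10.4% of genes above the median level. The median r was -0.37, beside -0.04 over all genes. Mylip, whose protein degrades the LDL receptor and which is an LXR target, stood at -0.81, and the phospholipid transfer protein Pltp at -0.66. Abcg1 stood at 0.21. Between genotypes 5 were higher and 7 lower (median -0.01), against 53.3% of all genes lower. An unadjusted p under 0.05 was reached by 0 of the 12, against 2.56% of all genes. The count lower was 3 without control 4, 3 with array weights and 4 in the set of control 1. The exporter gene Abcg1 had means of 9.52 ± 0.18 and 9.34 ± 0.06 and did not overlap between groups, as in 1.70% of all genes (difference -0.18, interval -0.40 to 0.04), Nr1h3 differed by -0.20 (-0.61 to 0.22), and Ch25h, which makes an oxysterol, by -0.79 (-2.29 to 0.71). For Ch25h control 1 read 7.9997 and the other 7 arrays 4.79 to 5.09.

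In the branches that leave farnesyl diphosphate for ubiquinone, dolichol and prenylated proteins, 9 of 10 genes were measured. In knockout 4 were higher and 5 lower, against 53.3% of all genes lower. An unadjusted p under 0.05 was reached by 0 of the 9, against 2.56% of all genes. The count lower was 2 without control 1, 3 without knockout 10, 3 in the set of control 4, and 8 with the mean of all probe sets of a gene or with array medians subtracted. The ubiquinone gene Coq2 differed by -0.21 (interval -0.55 to 0.13), Nus1, a subunit of the dolichol-making enzyme, by 0.09 (-0.10 to 0.28) and Pdss2 by -0.12 (-0.45 to 0.22). An r of at least 0.8 with the shared score was reached by Fnta, a subunit of the protein prenyltransferases (0.93), and by Pdss2 (0.85). These are 2 of 9, beside 10.4% of genes above the median level.

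**Figure D5:**
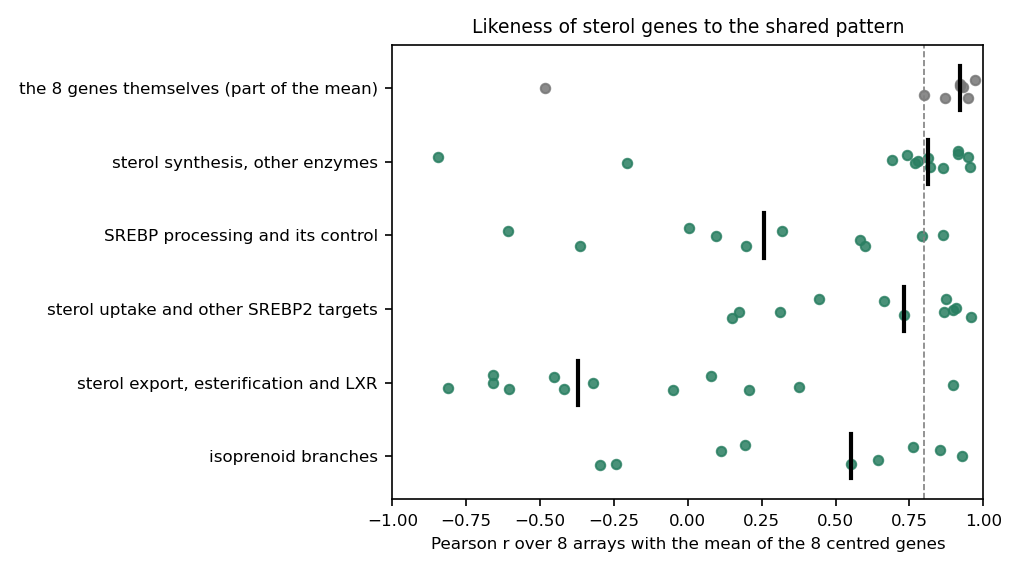
Each point is a gene, the x axis its Pearson r over the 8 arrays with the mean of the 8 centred genes, and the rows the lists, with a black bar at the median and a dashed line at 0.8. The other sterol enzymes have a median of 0.81 and the sterol export and LXR genes a median of -0.37, beside -0.04 over all genes.

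The shared pattern was not limited to sterol genes. Above the median level, 946 of 9088 other genes had an r of at least 0.8 with the score, and the 200 closest, 2.20% of them, included 3 of the 12 other sterol enzymes above that level. The 10 closest were Mtif2, Hspa4, Atxn2, Ecd, Rars, Tbl2, Ap4b1, Vps4a, Dlgap4 and Tcp1, at an r of 0.97 to 0.98 over 8 arrays. Mtif2, a mitochondrial translation factor, read 9.55, 9.52, 9.29 and 8.97 in control and 9.30, 9.32, 9.33 and 8.98 in knockout. These genes spanned less than Fdps or Insig1: the chaperone Hspa4 ran from 10.47 in control 4 to 11.09 in control 1.

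Measures of RNA quality and of other tissues were set beside the score. For pyruvate carboxylase the 3' minus 5' value (log2) was 3.97, 1.59, 2.08 and 4.83 in controls 1, 2, 3 and 4. In knockouts 6, 8, 9 and 10 it was 2.10, 1.77, 4.65 and 1.60. With this measure regressed out, the median r of the 28 pairs was 0.79. Liver makes much of the body's cholesterol. The mean of 10 hepatocyte markers was 11.38, 8.85, 8.19 and 6.89 in controls 1, 2, 3 and 4. It was 9.40, 8.27, 6.81 and 7.73 in knockouts 6, 8, 9 and 10. The summed linear level of these markers ran from 19312 to 49819 in control and from 19112 to 25667 in knockout, and 2 of the 10 were below the lower quartile in control 4 and in knockout 9. Cyp2e1 was the brightest of the 10 on every array, at 14.04 to 14.45. The sum is therefore weighted towards Cyp2e1 and says little about the other markers. Albumin (Alb) read 13.64, 10.95, 9.20 and 7.87 in control and 11.97, 10.25, 8.06 and 8.89 in knockout. Without control 1 the median r of the 28 pairs was 0.71. Steroid-producing cells also make cholesterol, and their 8 measured markers averaged 6.68 to 6.87 over the arrays, with 2 or 3 of the 8 below the lower quartile on each. Their summed linear level ran from 2929 to 3396 in control and from 3146 to 3543 in knockout. Fdx1 (10.83 to 11.11) and Mc2r (9.43 to 10.17) were the brightest of these markers on every array and weigh most in that sum. Adipocyte markers were lowest in control 4, at 13.10, while knockout 10 read 13.28. The part of RNA quality or of these cell types in the pattern was not tested.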

How the data were processed

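RNA from gonadal fat was extracted with Trizol, amplified, biotin-labelled and hybridised to Affymetrix mouse arrays, per the labels' protocols. The authors deposited log2 values, made with RMA per the submitters' processing notes (version not given in the sources used here). RMA corrects background and normalises between arrays, which may compress dim genes. The table holds no detection calls. After 64 control probe sets were left out, 45037 remained: 34945 with 1 gene symbol in the platform annotation of 2016, 932 with several (not named) and 9160 with none. Entrez numbers matched 34741 to RefSeq genes (GRCm38.p6) and changed 0 symbols. The fit used limma 3.58.1 in R 4.3.3 (lmFit, eBayes, no covariates), 4 arrays against 4, with intervals of 95% not adjusted for the number of genes. The number of arrays limits precision, and p-values measure only the spread between these samples, which may be technical. Correlations and exact permutation tests used scipy 1.17.1 and Python 3.11.15.

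In a simulated table of 18193 genes for the genotype comparison, 27 of 50 genes changed by 1.5-fold were recovered, as were 47 of 50 changed by 2-fold. False calls numbered 8. Noise was drawn independently for each gene and array. Patterns that genes share over the arrays, such as the array sets, were therefore not simulated. The changed genes were drawn at random from all genes, whose median SD over the 8 arrays was 0.15. That SD was 0.44 to 0.62 for Cyp51, Idi1, Insig1 and Fdps, so these counts do not give the recovery of such variable genes. Members, lists and tests were chosen with earlier results of these data known. The rule for named genes took the 8 members, Pex5, the 3 smallest unadjusted p-values of each wider list where none passed, and the 10 genes most like the members' mean. Genes named for a high or low r in a list were chosen after their values were seen. Alternatives were other summaries of probe sets, normalisations, filters, variance models, array weights, RNA quality as a covariate, the array set as a block, each set alone, and leaving out arrays. Cell type markers were fixed lists of 10 genes each, of which 8 to 10 were measured. Lists of epididymal, spermatid, ovarian, mesothelial, endothelial and fibroblast markers were also scored: on the 8 arrays their mean ran from 4.96 to 8.09, 5.27 to 7.94, 4.97 to 5.63, 7.84 to 9.36, 9.69 to 10.21 and 10.30 to 10.82. Figures were drawn with matplotlib 3.10.9.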

Additional observations from a re-analysis of the deposited data

Results flagged for a closer look

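In 128 groups of 4 arrays examined, 13 (10.2%) held an array whose gap to its nearest neighbour was above Dixon's 95% critical value as a share of the group's range; chance gives about 1 in 20. No explanation was tested. Among controls, control 4 stood apart for Insig1 (9.27), control 3 for Abcg1 (9.79), and control 1 for Ch25h (7.9997) and for the score of epididymal markers (0.95). The epididymal score was higher in knockout 8 (2.34), whose gap among the knockouts was not above the critical value. Among knockouts, knockout 9 stood apart for Hmgcs1 on 1433445_x_at (13.03) and 1433444_at (13.01) and for the score of spermatid markers (1.88). Knockout 10 stood apart, at the low end, for Pmvk (8.60), Mtif2 (8.98), Atxn2 (9.76), Ecd (9.21), Tbl2 (8.62) and Vps4a (9.38). The last 5 genes were picked for likeness to the score, in which knockout 10 is low.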

How the results depend on the processing

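Apart from the setting that follows, 0 genes passed an adjusted p of 0.05 under any alternative run. Unadjusted counts ran from 244 to 1566 of 18193 genes. They were 206 of 9096 with dim genes left out and 1139 of 45037 with every probe set tested alone. Without controls 1 and 4 and knockout 9, chosen after seeing the data, 155 passed (smallest limma adjusted p 0.0404). The cause was not tested in any case that follows. Differences that turned sign were Hmgcs1 with array weights (-0.033), in the set of control 1 (-0.26) and without controls 1 and 4 and knockout 9 (-0.11), and Sqle under the same settings (-0.080, -0.20 and -0.085). Hsd17b7 turned in the set of control 1 (-0.0043), and Idi1 (0.041), Fdps (0.14) and Cyp51 (0.061) in that of control 4. With 1 array left out, differences ran from -0.10 to 0.21 for Hmgcs1, -0.11 to 0.22 for Sqle and -0.55 to 0.084 for Insig1, which turn sign, and from -0.47 to -0.04 for Idi1, -0.67 to -0.07 for Fdps, -0.39 to -0.0011 for Cyp51, 0.06 to 0.24 for Hsd17b7 and 0.09 to 0.23 for Srebf2. The number of the 8 genes lower in knockout was 4; it was 7 in the set of control 1, 1 in that of control 4, and 3 to 6 with 1 array left out. The median r of the 28 pairs was 0.63 by Spearman, 0.36 without control 4 and knockout 10, and 0.56 (without control 4) to 0.81 with 1 array left out. No paired analysis was possible because the groups share no replicate number. The array set could be used as a block, with 0 genes passing.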
